A study of Homo sapiens with 12 samples.

Results

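The replication-independent histone genes H1FX, H2AFX, H2AFZ, H3F3A and H3F3B were followed across the ChIP-Seq libraries of 4 transcriptional regulators. Each gene was represented by 1 transcription start site (TSS) on NCBI36, and its members were the listed regions whose summit, the position with the highest pile of reads, lay within 2 kb of that TSS. This gave 57 regions of 1636159 listed in all, for 5 genes. They fell into 40 pairs of a gene and a library, of which 32 had at least 1 listed region and 8 had none. A region was taken as a called peak where its deposited p-value was under 0.00001 and its fold enrichment over IgG was above 2, and 7 regions passed, each in a different pair.

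CASP8AP2, NPAT, HINFP and E2F1 were each immunoprecipitated from hTERT-RPE1, retinal pigment epithelium of normal origin made immortal by hTERT, the catalytic part of telomerase, and from U2OS cells, an osteosarcoma line. No treatment, knockdown or time point is given in the labels of these libraries, and the ChIP methods of the study name none. There was 1 library for each factor in each line, 8 in all, so nothing below has a replicate, and values for a line or a factor are values for 1 library. Rabbit IgG served as the control for CASP8AP2, NPAT and E2F1, whose values in a line therefore share a control, and goat IgG served for HINFP. The lists held between 39603 and 478015 regions, with a read pile of at least 8 at each summit, and between 184 and 1516 called peaks. Total reads per library are not known from the lists. As the deposited fold enrichments imply, ChIP depth relative to the control was between 0.858 and 1.23.

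Most histone genes are expressed in S phase only, when new DNA has to be packed, and lie in clusters. The replication-independent genes lie singly and are expressed outside S phase too. H1FX encodes a linker histone, a protein that binds the DNA between nucleosomes. H2AFX encodes H2A.X, which is phosphorylated around DNA breaks, and H2AFZ encodes H2A.Z, found in nucleosomes next to active TSSs. H3F3A and H3F3B encode the same H3 protein, which replaces canonical H3 at transcribed and regulatory DNA. NPAT and CASP8AP2 act at the clustered genes in histone locus bodies, HINFP is a zinc finger protein known as an activator of H4 genes, and E2F1 drives genes needed for S phase.

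The TSS given for H1FX was at 130517810 of chromosome 3. H2AFX was placed at 118471387 of chromosome 11 and H2AFZ at 101090535 of chromosome 4. H3F3A was placed at 224317036 of chromosome 1 and H3F3B at 71287271 of chromosome 17. In the RefSeq gene table of GRCh38.p14 all 5 genes were found, as H1-10, H2AX, H2AZ1, H3-3A and H3-3B. In that table the spans of other genes overlap some of them. H1-10-AS1 overlaps H1-10, DPAGT1 overlaps H2AX and H3-3A-DT overlaps H3-3A. Whether a neighbour lies at the TSS itself was not determined. Genes nearby whose span does not overlap were not searched for.

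The RefSeq promoter table, also on GRCh38.p14, had an entry for each of the 5 genes. The 250 bases before the RefSeq start are shown for the gene with a HINFP peak in both lines (H1-10), for both H2A genes with E2F1 peaks in both lines (H2AX and H2AZ1) and for the gene with no called peak (H3-3B), all on the minus strand, 5′ to 3′. Capitals mark the letters found in a search of both strands for GCGGAC, a core of the HINFP motif, and for the CCAAT box.
H1-10: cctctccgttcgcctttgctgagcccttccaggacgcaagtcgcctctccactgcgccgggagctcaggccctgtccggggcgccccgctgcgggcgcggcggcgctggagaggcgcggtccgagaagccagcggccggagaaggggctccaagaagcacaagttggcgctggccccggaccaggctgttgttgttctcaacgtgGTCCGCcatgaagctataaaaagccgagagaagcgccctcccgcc
H2AX: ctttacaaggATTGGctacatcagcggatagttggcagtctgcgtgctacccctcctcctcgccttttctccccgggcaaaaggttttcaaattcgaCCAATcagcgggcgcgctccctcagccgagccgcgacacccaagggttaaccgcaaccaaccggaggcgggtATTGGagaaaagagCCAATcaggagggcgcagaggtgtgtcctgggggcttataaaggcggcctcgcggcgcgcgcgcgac
H2AZ1: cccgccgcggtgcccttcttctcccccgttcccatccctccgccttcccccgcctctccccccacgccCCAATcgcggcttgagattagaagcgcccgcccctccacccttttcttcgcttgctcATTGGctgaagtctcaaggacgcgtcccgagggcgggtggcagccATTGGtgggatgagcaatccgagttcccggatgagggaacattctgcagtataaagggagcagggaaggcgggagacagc
H3-3B: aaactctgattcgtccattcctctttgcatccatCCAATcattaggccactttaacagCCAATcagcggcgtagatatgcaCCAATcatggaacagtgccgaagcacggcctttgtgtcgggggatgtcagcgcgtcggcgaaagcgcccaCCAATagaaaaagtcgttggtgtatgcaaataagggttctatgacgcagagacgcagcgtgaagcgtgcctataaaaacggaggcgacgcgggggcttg

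The H1-10 sequence is from chr3:129316287-129316536, the H2AX sequence from chr11:119095466-119095715, the H2AZ1 sequence from chr4:99950276-99950525 and the H3-3B sequence from chr17:75779780-75780029. The longer HINFP letters GCGGACG and the E2F letters TTTCCCGC, TTTGGCGC, TTTCGCGC and TTTGCCGC were in none of the promoters of the 5 genes. Of 35116 promoters of the table, 3.31% held GCGGACG and 2.79% held at least 1 of the E2F strings. The 6 letters GCGGAC were searched only after the longer string had been missed. They were in H1-10, where the opposite strand GTCCGC lay 45 to 40 bases before the start, in 2 of 4 entries of H3-3A, and in 10.4% of all promoters. CCAAT or its opposite strand ATTGG was found 4 times in H2AX, 3 times in H2AZ1, 4 times in H3-3B and once in each of 3 of the 4 H3-3A entries. It was not in the fourth H3-3A entry nor in H1-10, against at least once in 32.0% of all promoters. The NCBI36 TSSs and the RefSeq starts were not matched between the builds, so distances from one are not distances from the other.

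Of the 5 TSSs, HINFP had a called peak at 1 in each line, H1FX. E2F1 had one at 3 in hTERT-RPE1, H2AFX, H2AFZ and H3F3A, and at 2 in U2OS, H2AFX and H2AFZ. CASP8AP2 and NPAT had none, although 17 of their 20 pairs had a listed region. The share of all listed regions that were called was 0.393% for HINFP in hTERT-RPE1, 0.5% in U2OS, 0.707% for E2F1 in hTERT-RPE1 and 0.748% in U2OS. It was 0.112% and 0.0927% for CASP8AP2 and 0.259% and 0.108% for NPAT, in hTERT-RPE1 and U2OS cells. Among the regions at the 5 TSSs, HINFP peaks were called in 1 of 1 and 1 of 4, and E2F1 peaks in 3 of 10 and 2 of 8, in the same order of lines. These are shares above the backgrounds of the same lists. The genes were chosen with earlier results of these data known, and the backgrounds cover all listed regions, not only those at TSSs. The higher shares are thus a description and no support for binding particular to these genes. For CASP8AP2 and NPAT the backgrounds are so low that 0 of 4, 10, 11 and 9 regions lies close to them.

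Having a listed region was by itself not rare. Along the chromosomes of these genes, between 2.78% and 8.83% of positions lay within 2 kb of a listed summit for HINFP in U2OS, and between 35.9% and 53.4% for NPAT in U2OS. The other libraries fell between. In every library the highest of these shares was on chromosome 17, which holds H3F3B. H1FX and H3F3B had a listed region in 7 libraries, and H2AFX, H2AFZ and H3F3A in 6. Of the 8 pairs with no listed region, 5 were HINFP pairs, none of them at a gene with a HINFP call in the other line. HINFP listed nothing at H2AFX in either line, nor at H2AFZ, H3F3A and H3F3B in hTERT-RPE1. The remaining 3 pairs were CASP8AP2 at H1FX and H3F3A in hTERT-RPE1 and NPAT at H2AFZ in U2OS. The counts at a TSS with no listed region are not known.

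At H1FX, HINFP had 259 ChIP and 4 IgG sequences in hTERT-RPE1 and 228 ChIP and 8 IgG sequences in U2OS. The ChIP counts stand far above the controls in both lines. They were also above those of the other 3 factors at this gene, which reached at most 43. Those counts are from other libraries, of unknown total reads, and from regions of other lengths. The raw ratio, with 1 added to each count, was 52 in hTERT-RPE1 and 25.4 in U2OS. Scaled for depth, the fold enrichment was 51.9 in hTERT-RPE1, with an exact 95% Clopper-Pearson interval of the count ratio from 25 to 239. In U2OS cells it was 29.6, with an interval from 16.6 to 77.8. These intervals cover counting error only, carry no added count and do not include the spread between precipitations. The deposited p-values were 7.91e-72 and 2.39e-65. These compare 1 ChIP with 1 IgG library and carry no adjustment for the number of regions. By p-value the H1FX peak ranked 1 of 253 called HINFP peaks in hTERT-RPE1 and 2 of 198 in U2OS, so that it was among the strongest HINFP sites anywhere in these lists.

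The HINFP region at H1FX ran from 130517624 to 130518111 in hTERT-RPE1 and from 130517526 to 130518122 in U2OS, and held the TSS in both. The summits lay 54 bp and 47 bp upstream of the TSS, 7 bp from each other. The reads were gathered in a narrow pile: the height at the summit was 255 in hTERT-RPE1 and 216 in U2OS, which are 98.5% and 94.7% of the ChIP sequences of the region. Over all called HINFP peaks the median of this share was 70% in hTERT-RPE1 and 80.9% in U2OS. Over the called HINFP peaks at 26 to 28 Mb of chromosome 6, with the large cluster of replication-dependent histone genes, it was 95.5% and 89.1%. A narrow pile was thus not particular to H1FX.

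The other factors were not called at H1FX. E2F1 came nearest in U2OS, with 27 ChIP and 7 IgG sequences, a fold enrichment of 3.72 (interval 1.74 to 11.1), a deposited p of 0.000131 and a summit 10 bp upstream of the TSS, within the HINFP region. In hTERT-RPE1 cells, by contrast, the E2F1 fold enrichment over the TSS was 1.38, from 15 ChIP and 10 IgG sequences, and the lowest p belonged to another region, 1312 bp downstream, with 29 ChIP and 16 IgG sequences. NPAT regions overlapping the HINFP peak had 16 ChIP and 10 IgG sequences in hTERT-RPE1 and 43 ChIP and 18 IgG sequences in U2OS, with fold enrichments of 1.43 and 1.89. Those with the lowest p lay outside it and had 17 and 4 sequences (fold enrichment 3.34) and 18 and 3 sequences (fold enrichment 3.87, interval 1.43 to 25.9). CASP8AP2 had 2 regions in U2OS, with 17 ChIP and 4 IgG sequences 577 bp downstream, and with 16 and 6 sequences 17 bp downstream.

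E2F1 had its called peaks at the H2A variants and H3F3A. At H2AFX there were 87 ChIP and 13 IgG sequences in hTERT-RPE1 and 50 ChIP and 7 IgG sequences in U2OS. Both ChIP counts were over 5 times their control. The raw ratios were 6.29 and 6.38. The fold enrichment was 5.94 in hTERT-RPE1 (interval 3.51 to 12.4, p-value 2.99e-14) and 6.77 in U2OS (interval 3.42 to 19.8, p-value 3.11e-10). The peaks ranked 142 of 1516 and 226 of 938 called E2F1 peaks by p-value, in the upper part but not at the top. By fold enrichment they ranked lower, 638 in hTERT-RPE1 and 243 in U2OS. The regions ran from 118471129 to 118471846 and from 118470918 to 118471791, both holding the TSS. Their summits lay 176 bp and 142 bp upstream and 34 bp apart. The U2OS region also overlapped another hTERT-RPE1 region, described below, so the counts of the lines are for unlike stretches. The piles were broader than those of HINFP at H1FX, with heights of 46 and 25, or 52.9% and 50% of the ChIP sequences. The median of that share over all called E2F1 peaks was 57.8% in hTERT-RPE1 and 60% in U2OS.

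A second E2F1 region at H2AFX in hTERT-RPE1 had 36 ChIP and 8 IgG sequences, a fold enrichment of 3.89 and a deposited p of 1.73e-05, just short of the limit, with a summit 481 bp downstream. In the same cells and the same stretch NPAT had 26 ChIP and 4 IgG sequences, a fold enrichment of 5.01 (interval 2.09 to 23.8) and a deposited p of 3.95e-05, with a summit 604 bp downstream. This was the lowest p of any CASP8AP2 or NPAT region at the 5 genes, and it was not called. In U2OS cells NPAT had 11 ChIP and 3 IgG sequences at H2AFX, a fold enrichment of 2.45 (interval 0.790 to 16.7). CASP8AP2 had 16 ChIP and 8 IgG sequences in hTERT-RPE1 and 12 and 7 in U2OS, with fold enrichments of 1.73 and 1.49. HINFP listed no region at this gene. Its nearest called peak was 11.9 kb away in hTERT-RPE1 and 12.0 kb away in U2OS.

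At H2AFZ, E2F1 had 61 ChIP and 9 IgG sequences in hTERT-RPE1 and 48 ChIP and 9 IgG sequences in U2OS. The raw ratios were 6.2 and 4.9. The fold enrichment was 5.86 in hTERT-RPE1 (interval 3.16 to 14.7, p-value 1.59e-10) and 5.20 in U2OS (interval 2.75 to 13.1, p-value 1.3e-08). The values of both lines were close, and the intervals overlapped over most of their length. The regions ran from 101090258 to 101091210 and from 101089917 to 101090881, with summits 68 bp and 87 bp downstream of the TSS and 19 bp apart. The peaks ranked 297 of 1516 and 324 of 938 by p-value, and 646 and 410 by fold enrichment. A further region in hTERT-RPE1, 709 bp downstream, had 28 ChIP and 6 IgG sequences. It had a fold enrichment of 3.92 and a deposited p of 0.000111, and was not called. The U2OS region overlapped both hTERT-RPE1 regions, so the counts of the lines are for unlike stretches.

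CASP8AP2 had its strongest region of the 5 genes at H2AFZ, in U2OS, with 32 ChIP and 8 IgG sequences, a fold enrichment of 3.36 (interval 1.65 to 9.19), a deposited p of 0.000167 and a summit 140 bp downstream of the TSS. That summit was 53 bp from the summit of the E2F1 peak. In hTERT-RPE1 cells CASP8AP2 had 15 ChIP and 6 IgG sequences there (fold enrichment 2.10). Neither was called. NPAT had no listed region in U2OS. In hTERT-RPE1 its region over the TSS, with a summit 126 bp downstream, had 11 ChIP and 6 IgG sequences (fold enrichment 1.59), and its lowest p was 1246 bp downstream, with 8 ChIP and 2 IgG sequences (fold enrichment 2.78, interval 0.741 to 35.9). HINFP had 12 ChIP and 4 IgG sequences in U2OS (fold enrichment 3.03) and no listed region in hTERT-RPE1.

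The H3.3 genes H3F3A and H3F3B differed in what was called. At H3F3A, E2F1 had 54 ChIP and 8 IgG sequences in hTERT-RPE1, and 24 ChIP and 7 IgG sequences in U2OS. Only the first was called. The raw ratios were 6.11 and 3.13. The fold enrichment was 5.78 in hTERT-RPE1 (interval 3.02 to 15.5, p-value 1.79e-09) and 3.32 in U2OS (interval 1.52 to 10.0, p-value 0.000594). The intervals overlapped, so that a call in one line and not in the other is not by itself a difference between them. The summits lay 636 bp and 601 bp upstream of the TSS and 35 bp apart, and the called region, from 224316191 to 224316919, did not hold the TSS. In U2OS cells E2F1 had 2 more regions, with 14 ChIP and 3 IgG sequences 189 bp upstream (fold enrichment 3.98, interval 1.38 to 26.9) and with 19 and 11 sequences 399 bp downstream. The one 189 bp upstream also overlapped the stretch called in hTERT-RPE1. The counts of the lines set side by side here are therefore for stretches of unlike length.

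Set against H2AFX within the hTERT-RPE1 library, E2F1 had 0.621 times the ChIP count at H3F3A (interval 0.434 to 0.882). At H2AFZ it had 0.701 times the H2AFX count (interval 0.497 to 0.984). These counts were not scaled for the length of the region, 718 bp at H2AFX, 729 bp at H3F3A and 953 bp at H2AFZ. The IgG counts gave about the same ratios, 0.615 for H3F3A (interval 0.221 to 1.60) and 0.692 for H2AFZ (interval 0.261 to 1.75), and the fold enrichments of the 3 genes were between 5.78 and 5.94. In U2OS the H2AFZ to H2AFX ratio was 0.960 for ChIP (interval 0.632 to 1.46) and 1.29 for IgG (interval 0.426 to 4.06). No such ratio is given for H3F3A in U2OS, where 2 listed regions overlapped the stretch called in hTERT-RPE1, the one 601 bp and the one 189 bp upstream.

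At H3F3B no factor was called. The E2F1 region over the TSS had 11 ChIP and 11 IgG sequences in hTERT-RPE1 and 43 ChIP and 21 IgG sequences in U2OS, with fold enrichments of 0.945 and 2.12. The second of these passed the limit on the fold enrichment and not that on the p-value, which was 0.00139. In hTERT-RPE1 cells the E2F1 region with the lowest p was 551 bp downstream, with 12 ChIP and 3 IgG sequences (fold enrichment 3.07, interval 1.02 to 20.9). Its nearest called E2F1 peak was about as far in both lines, 161.6 kb in hTERT-RPE1 and 161.5 kb in U2OS. HINFP had 14 ChIP and 4 IgG sequences in U2OS (fold enrichment 3.50) and no listed region in hTERT-RPE1.

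The highest fold enrichment of any uncalled region at the 5 genes was also at H3F3B. NPAT in U2OS had 16 ChIP sequences and 1 IgG sequence 1217 bp upstream, for a fold enrichment of 6.93 (interval 2.03 to 547) and a deposited p of 0.000342. At the TSS itself the NPAT fold enrichment was 1.13, from 28 ChIP and 20 IgG sequences. In hTERT-RPE1 cells its region there had 16 and 11 sequences (1.32). The CASP8AP2 regions, 216 bp upstream in hTERT-RPE1 and 181 bp upstream in U2OS, had 16 and 7 sequences and 42 and 25 sequences, with fold enrichments of 1.95 and 1.51. At H3F3A, too, CASP8AP2 and NPAT stayed low. NPAT had at most 11 ChIP and 3 IgG sequences among the regions of hTERT-RPE1 cells (fold enrichment 2.78, interval 0.899 to 19.0) and fold enrichments up to 1.16 in U2OS, and CASP8AP2 had fold enrichments up to 1.83 in U2OS. HINFP had 9 ChIP and 3 IgG sequences at H3F3A in U2OS (fold enrichment 2.91, interval 0.872 to 20.1).

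Between the lines, the called peaks kept their place. The summits of hTERT-RPE1 and U2OS were 7 to 35 bp apart over the 4 pairs with a call in either line, 3 of which were called in both. HINFP and E2F1 were not called at the same gene. None of the regions of another factor that overlapped a called peak in the same line was itself called, and their fold enrichments ran up to 3.72, at H1FX for E2F1 in U2OS.

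Over all 4 regions of CASP8AP2 in hTERT-RPE1 the median fold enrichment was 1.99, against 2.02 over all listed regions of that library. In U2OS it was 1.77 over 10 regions, against 1.83. For NPAT it was 2.32 over 11 regions, against 2.23, in hTERT-RPE1 and 1.63 over 9 regions, against 1.83, in U2OS. The CASP8AP2 and NPAT regions at these genes were thus near the middle of their lists. For E2F1 the called regions, 3 of 10 in hTERT-RPE1 and 2 of 8 in U2OS, were left out at these genes. The remaining, uncalled regions had medians of 1.67 in hTERT-RPE1 and 2.72 in U2OS. Over all listed regions, called ones included, the medians were 2.08 and 1.95. Leaving out the called regions lowers the values at these genes, so the E2F1 medians are not placed in their lists.

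At the edge of the window, the farthest region inside was an NPAT region 1407 bp from H3F3A in hTERT-RPE1, with 11 ChIP and 3 IgG sequences (fold enrichment 2.78, interval 0.899 to 19.0), and the nearest outside was an E2F1 region 2131 bp from H2AFX in hTERT-RPE1, with a fold enrichment of 1.89 (19 ChIP and 9 IgG sequences). Neither was called.

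The large cluster of replication-dependent histone genes on chromosome 6 lies between 26 and 28 Mb on NCBI36. In that stretch CASP8AP2 had 14 called peaks of 164 listed regions in hTERT-RPE1 and 19 of 214 in U2OS, and NPAT had 27 of 273 and 25 of 340. These are shares between 7.35% and 9.89%, where the 5 replication-independent genes had no call. At those genes there were only 4 and 10 CASP8AP2 regions and 11 and 9 NPAT regions, in hTERT-RPE1 and U2OS. So few regions cannot show, in any single library, that the share differs from that of the stretch. HINFP had 8 called peaks there in each line, with fold enrichments from 4.0 to 23.5 in hTERT-RPE1 and from 4.93 to 15.1 in U2OS. The H1FX peak, at 51.9 and 29.6, was above this range in both lines. The largest ChIP count of a called HINFP peak in the stretch was 151 in hTERT-RPE1 and 85 in U2OS, below the 259 and 228 at H1FX.

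E2F1 had 8 called peaks in the chromosome 6 stretch in hTERT-RPE1 and 4 in U2OS, with fold enrichments from 3.63 to 12.0 and from 2.98 to 6.66. At H2AFX, H2AFZ and H3F3A the called fold enrichments of 5.78 to 5.94 in hTERT-RPE1 lay within the first range. In U2OS cells H2AFZ, at 5.20, lay within the second and H2AFX, at 6.77, just above it. Over all called E2F1 peaks the median fold enrichment was 5.29 in hTERT-RPE1 and 4.83 in U2OS. The called folds of these genes were above that median in both lines, and H2AFX in U2OS was just below the upper quartile of 6.89. Over all called HINFP peaks it was 17 and 9.12. With 1 library per group none of these differences was tested.

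**Figure D1:**
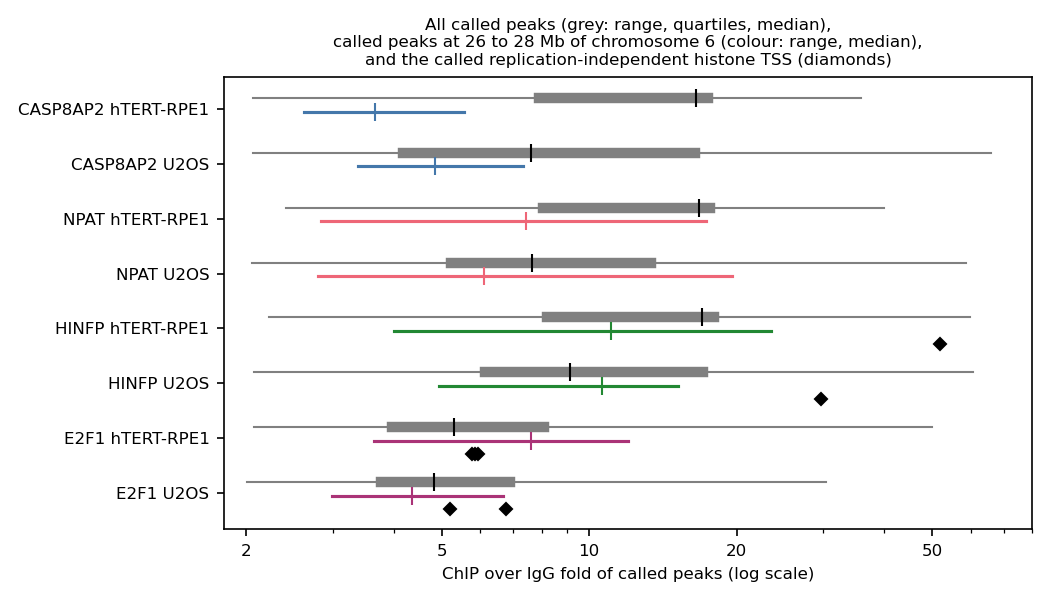
Fold enrichment over IgG (log scale) of called peaks in each library: grey for all called peaks (thin line, range; thick line, quartiles; tick, median), colour for those at 26 to 28 Mb of chromosome 6 (range and median) and diamonds for the replication-independent histone TSSs. Diamonds are at 51.9 and 29.6 for HINFP, and between 5.20 and 6.77 for E2F1, with none for CASP8AP2 and NPAT.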

How the data were processed

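ChIP-Seq of CASP8AP2, NPAT, HINFP and E2F1 was done with 5 µg of antibody on chromatin of hTERT-RPE1 and U2OS cells, cross-linked with formaldehyde and sheared by sonication. The authors sequenced on an Illumina Genome Analyzer or HiSeq2000 and mapped to NCBI36 (hg18 in the submitters' processing notes). The aligner, peak caller and treatment of duplicate reads are not given in the sources used here, and duplicates retained in a region would raise its count. The deposited lists give, per region, ChIP and IgG counts of sequences as whole numbers with no normalization. The signal that the authors deposited as height is the read pile at the summit. The deposited fold change is a ratio, (ChIP + 1)/(IgG + 1), times a depth constant of the library. Each deposited p-value follows from both counts and this constant (recomputed to within 1%) and is not adjusted. The 4 IgG libraries were seen only through their counts in these lists.

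From the lists, regions with a summit within 2 kb of a TSS were taken, the one with the lowest p described first, and limits set on the fold change (above 2) and the p-value (under 0.00001) (the methods print the sign of the p limit the other way, which was read as under). Samples were grouped by the factor and line of their labels. The precision of a fold is set by its counts, through exact Clopper-Pearson intervals of 95%. With 1 library per group no test between libraries was made. The rule for named genes was every gene of the list in all 8 libraries, and 1 of its 6 genes is not reported here. The genes and lists were chosen with earlier results of these data known. A planned list of other replication-independent genes was not analysed here, as no NCBI36 annotation was used. Alternatives were a p-value under 0.0001 or 1e-10, a fold change above 5, a Benjamini-Hochberg adjusted p under 0.05, windows of 1 kb and 5 kb, the nearest summit, regions that hold the TSS, regions added up, the raw ratio and an added count of 0.5. The search code was tested on simulated data, where 40 of 40 planted regions in 8 lists of 20000 were found and called. The work was done in Python 3.11.15 with scipy 1.17.1, pandas 2.3.3 and numpy 2.4.6, and plots with matplotlib 3.10.9.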

Additional observations from a re-analysis of the deposited data

How the results depend on the processing

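The numbers of TSSs with a called peak stayed within 1.5 times of those reported in 56 of 64 alternatives, and the 7 called folds kept their direction and side of the limits in all 42. Many of the unchanged numbers were those of CASP8AP2 and NPAT, which had no call. A stricter setting could not change these, so the tally does not measure how stable the calls are. For the called folds, the nearest summit and the windows of 1 kb and 5 kb returned the same region and the same fold. The 42 are therefore no measure of how stable those folds are. With a p-value under 1e-10, E2F1 kept 1 TSS in hTERT-RPE1 and 0 in U2OS, and both HINFP counts stayed at 1. With a p-value under 0.0001, NPAT gained 1 in hTERT-RPE1, H2AFX. With a Benjamini-Hochberg adjusted p under 0.05, CASP8AP2 had 2 in U2OS, NPAT had 2 in each line, HINFP had 3 in U2OS and E2F1 had 5 in U2OS. That limit passed 10.3% to 43.4% of all listed regions. Over all listed regions the number called also moved by over 1.5 times with the rule, for E2F1 in hTERT-RPE1 from 282 (p-value under 1e-10) to 3737 (p-value under 0.0001) around 1516. Where only regions that hold the TSS were taken, E2F1 at H3F3A in hTERT-RPE1 was lost. Each uncalled fold was recomputed under several of the alternatives, and 143 of these values stayed within the counting interval of their fold while 7 moved out of it. For NPAT at H3F3B in U2OS, with 1 IgG sequence, the 1 kb window gave 1.13 in place of 6.93. No paired analysis was possible because there was 1 library per group. At the uncalled regions low counts limit what can be told. The 9 ChIP and 3 IgG sequences of HINFP at H3F3A in U2OS gave an interval from 0.872 to 20.1.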

Other observations

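The nearest called peak of the factors with no call at these genes lay far off in most cases. For CASP8AP2 it was between 5106 and 21852 kb from the 5 TSSs in hTERT-RPE1 and between 233 and 14619 kb in U2OS. For NPAT it was between 137 and 5771 kb in hTERT-RPE1. In U2OS cells it was 11.5 kb from H1FX, the shortest distance of any of these, and up to 13120 kb from H2AFZ. Called peaks were few, with 184 and 232 for CASP8AP2 and 774 and 514 for NPAT, in hTERT-RPE1 and U2OS. The distances were not compared with those of other positions.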
